A study of Mus musculus with 3 samples.

Results

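Cluster 14 of the Ob library is a small group of nuclei from the epididymal fat of obese mice, proposed as Ccr2-rich monocyte-like cells with Ccr2, Cd74 and Ptprc as its marker genes. It was taken as the column of mean counts that the authors deposited for cluster 14, turned back into whole UMIs (molecules counted once each through their identifier), scaled to counts per 1000000 UMIs (CPM) and set against the other clusters of the same library. It is 1 of 21 clusters of Ob and 1 of 46 clusters in the 3 libraries, and it held 517257 of the 111595518 UMIs of Ob, or 0.464%. That total equals about 131 nuclei of the median size of the library (3946 UMIs). The number of nuclei itself could not be read from the values. The cluster was defined by the expression of these genes, so all values that set it against other clusters describe it and carry no test.

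The study compared male C57BL/6J mice in 3 groups, bought at 5 weeks of age, with no transgene or mutation named for any group. Ctrl mice ate an ordinary diet, whereas Mid_Ob and Ob mice ate a high-fat diet (60% fat) and were taken once they weighed over 10% and over 20% more than control mice. Epididymal fat of 8 mice was pooled into 1 library of nuclei per group for 10x Genomics sequencing, so no spread between animals can be given and every interval below (95%, in parentheses) covers counting error only. Ctrl held 53980929 UMIs and Mid_Ob 57665213, against 111595518 for Ob, where the clusters ranged from 334383 to 36391957 UMIs. The nuclei of each library had been clustered on their own, so a cluster number in one library has no partner in another. RNA of nuclei holds many unspliced transcripts and little of the cytoplasm, which limits its likeness to profiles of whole cells. Mitochondrial transcripts made up 0.442% of the UMIs of cluster 14, against 0.152% to 8.39% in the other clusters, with a median of 0.384%.

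Ccr2 is the receptor for the chemokine Ccl2 and guides classical monocytes from the bone marrow through blood into inflamed tissue, where they can become macrophages. It is also made by some dendritic cells, lymphocytes and young tissue macrophages. Cd74 encodes the invariant chain, which escorts MHC class II molecules to the compartment where they take up peptide, and Ptprc encodes CD45, the surface phosphatase of nearly all white blood cells. In obese fat, macrophages gather around dying adipocytes, and those that take up lipid switch on lysosomal and lipid-handling genes such as Trem2 and Gpnmb. Dendritic cells, which carry antigen to T cells, lie among them.

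Ccr2 gave 258 UMIs in cluster 14, or 499 CPM (439.8 to 564). The other 20 clusters ranged from 13.7 to 924 CPM with a median of 118. Cluster 14 therefore stood second among the 21 clusters, below cluster 6 and above clusters 15, 11 and 3 with 365, 334 and 226 CPM. The level was 4.44 (3.91 to 5.03) times that of the 20 other clusters summed and 0.540 (0.473 to 0.613) times that of cluster 6, so the gap to cluster 6 exceeded counting error. Only 2.03% of the Ccr2 UMIs of Ob lay in cluster 14. Cd74 gave 299 UMIs, or 578 CPM (514 to 647), rank 6 of 21, with the others between 54.4 and 1045 CPM (cluster 18). Ptprc gave 739 UMIs, or 1429 CPM (1328 to 1536), rank 4 of 21, with the others between 62.1 and 3092 CPM (cluster 15). All 3 marker genes were thus above 2-fold over the rest of the library and none was highest in cluster 14.

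**Figure D1:**
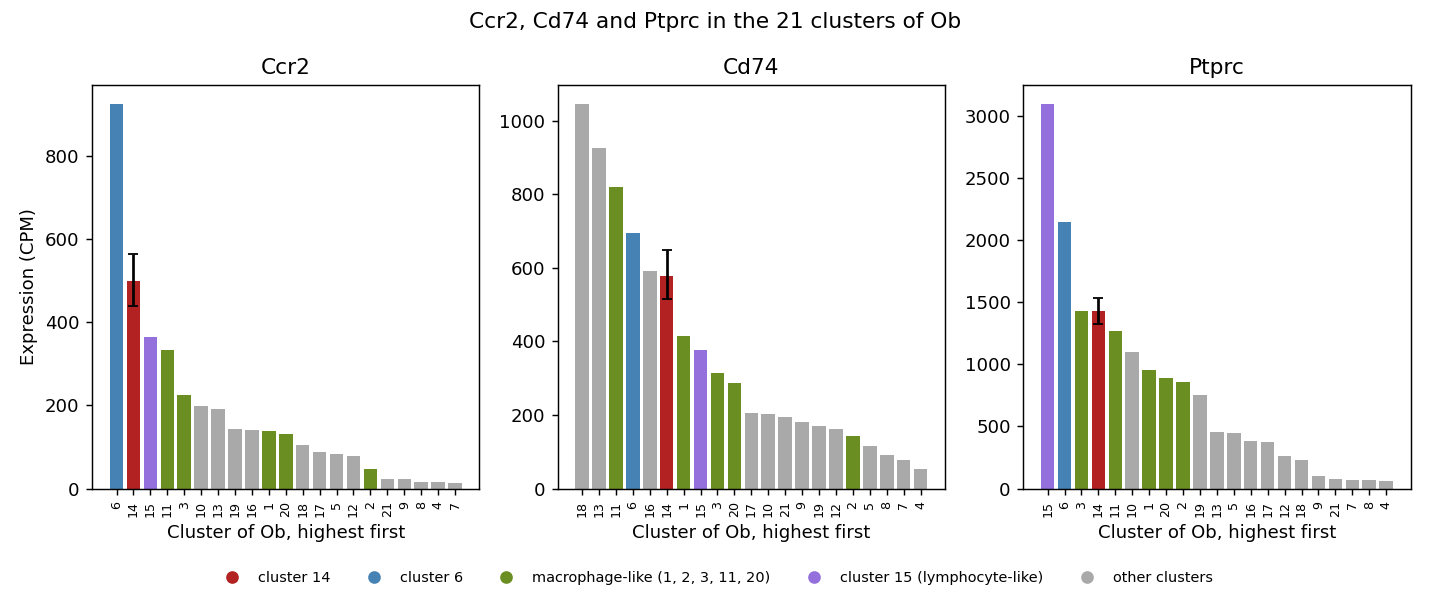
Expression of Ccr2, Cd74 and Ptprc in CPM in each of the 21 clusters of Ob, ordered from highest to lowest, with cluster 14 in red, cluster 6 in blue, the macrophage-like clusters in green and cluster 15 in purple. The error bar on cluster 14 is its 95% counting interval. Cluster 14 was second for Ccr2 (499 CPM, after 924 CPM in cluster 6), rank 6 for Cd74 and rank 4 for Ptprc.

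The classical monocyte genes neither bore out the label nor went against it, since its defining markers were too rare in the library for a check. Ly6c2, which encodes the Ly6C surface protein used to sort these cells, and Chil3, a secreted chitinase-like protein of theirs, had 0 UMIs in cluster 14, where 3 UMIs would have been 5.80 CPM. All of Ob held only 231 and 23 UMIs of them, so that 1.08 and 0.107 UMIs would be seen in cluster 14 at the level of the other clusters. Their absence was therefore not informative at this depth. Clec4e, a receptor for mycobacterial glycolipid, had 4 UMIs, or 7.73 CPM (2.11 to 19.8), the highest of the 21 clusters before 5.47 CPM in cluster 6, which its interval takes in. Plac8 had 14 UMIs, or 27.1 CPM (14.8 to 45.4), and Vcan, the proteoglycan versican, had 33, or 63.8 CPM (43.9 to 89.6), with up to 723 CPM in cluster 8. A monocyte identity could not be settled from these markers. The nuclei are called cluster 14 here. Apart from Ccr2, the members of this list past 2-fold over the 5 macrophage-like clusters (1, 2, 3, 11 and 20, summed) were Vcan at 3.93 (2.67 to 5.63), Hp at 2.20 (1.82 to 2.64), S100a4 at 2.23 (1.54 to 3.14) and Thbs1 at 3.22 (2.07 to 4.80), whereas F10, which encodes coagulation factor X, was lower at 0.419 (0.290 to 0.586). With Ccr2 these 5 higher members and 1 lower member are among 7 of 14 that passed the minimum of 20 UMIs seen or expected, and by the same rule 283 of 5546 genes (5.10%) were higher and 222 (4.0%) lower. Over the 20 other clusters only Ccr2 and S100a4 of 7 were higher and none lower, with a median log2 ratio of 0.18. There 7.67% of all genes were higher. Against cluster 6 only Thbs1 of 8 was higher and none lower, where 4.11% of all genes were higher. F10 was highest in cluster 2, with 228 CPM, and was past 2-fold higher in cluster 14 than in cluster 11 alone. The summed level of the list was 1131 CPM (1041 to 1226), sixth of 21 clusters and 2.02 times the macrophage-like level, where the highest cluster had 3748 CPM (cluster 18).

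Nonclassical monocytes patrol the vessel wall and carry the fractalkine receptor Cx3cr1. Cx3cr1 had 24 UMIs, or 46.4 CPM (29.7 to 69.0), the highest of the 21 clusters, with the others between 6.14 and 35.0 CPM. The interval of cluster 14 took in the level of cluster 17, the next highest. Adgre4, an adhesion G protein-coupled receptor related to F4/80, was at rank 3 with 172 CPM (138 to 212), below 218 CPM in cluster 11 and 217 CPM in cluster 6. Pou2f2, the octamer-binding transcription factor Oct-2, had 149 CPM (117 to 186). These 3 members were the ones past the minimum and all were above 2-fold over the macrophage-like clusters, where 5.10% of all genes were. Cd300e, Eno3 and Pglyrp1 had 0 UMIs, Spn had 1, and Treml4 and Ace had 2 each. These 6 of 12 members were rare in all of Ob, with 34 UMIs of Cd300e and 581 of Ace, so their low counts could not check the identity. The list summed to 429 CPM, rank 4 of 21, and 2.50 times the macrophage-like level.

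Dendritic cell genes were present at a lower level than in cluster 6. Flt3, the receptor of the growth factor that dendritic cells depend on, had 17 UMIs, or 32.9 CPM (19.1 to 52.6), second of 21 after 106 CPM in cluster 6, and 2.61 CPM in cluster 11. That was 13.5 (7.31 to 23.7) times the level of the macrophage-like clusters and 0.311 (0.179 to 0.505) times that of cluster 6. Zbtb46, a transcription factor of classical dendritic cells, had 50.3 CPM in cluster 14 and 142 CPM in cluster 6. Bcl11a, a transcription factor of dendritic cell and B cell precursors, had 50.3 CPM against 158 CPM there. Cluster 14 thus lay well under cluster 6 in these 3 genes. Btla, a checkpoint receptor, was at 0.0717 (0.0232 to 0.169) times the level of cluster 6. Of the 8 shared dendritic cell genes, 7 passed the minimum against cluster 6, and 5 of them (Bcl11a, Btla, Dpp4, Flt3 and Zbtb46) were more than 2-fold lower in cluster 14 with none higher, where 172 of 5591 genes (3.08%) were lower and 230 (4.11%) higher. Against the macrophage-like clusters 4 of 5 were higher (Bcl11a, Cbfa2t3, Dpp4 and Zbtb46), and Itgax, which encodes CD11c, was lower at 0.358 (0.215 to 0.561). By the same rule 5.10% of all genes were higher there and 4.0% lower. Over the 20 other clusters 2 of 5 were higher (Bcl11a and Cbfa2t3) and none lower, where 7.67% of all genes were higher. Dpp4 was highest in cluster 12, with 965 CPM. The sum of the 8 genes was 409.9 CPM, rank 7 of 21, against 1146 CPM for cluster 6 and 139.7 CPM for cluster 11. Cluster 6 was added as a comparator after its levels had been seen.

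The genes of the dendritic cell subsets differed from the shared ones and from each other. The cDC1 list summed to 1034 CPM, under cluster 6 (2111) and under the macrophage-like level (1519), whereas the cDC2 list summed to 699.8 CPM, rank 3 of 21, above cluster 6 (630.1) and near the macrophage-like level (657). The macrophage-like cDC1 sum includes Cadm1, which reached 1192 CPM in cluster 2. Of 6 cDC1 members past the minimum against those clusters, 1 was higher (Batf3) and 1 lower (Cadm1). Their median log2 ratio was 0.23, and 5.10% of all genes were higher and 4.0% lower. Among the genes of cDC1, the subset that presents antigen to CD8 T cells, Xcr1 had 0 UMIs and Clec9a, a receptor for dead cells, had 8, or 15.5 CPM against 107 CPM in cluster 6. Wdfy4, needed for cross-presentation, had 305 CPM in cluster 14 and 798 CPM in cluster 6. Both Clec9a and Wdfy4 were thus under cluster 6. Batf3, a transcription factor of cDC1, was 3.87 (2.87 to 5.10) times the level of the other clusters. Among the genes of cDC2, the subset that presents to CD4 T cells, the galactose-binding lectins Clec10a and Mgl2 were higher than in the other clusters, at 2.60 (2.07 to 3.23) and 3.57 (2.70 to 4.64) times, both with levels in cluster 11 (221 and 169.8 CPM) above those of cluster 14 (159 and 110.2 CPM). These lectins thus did not set cluster 14 apart from cluster 11. Cd209a, another cDC2 lectin, had 11 UMIs. Of the genes of migratory dendritic cells, Ccr7, the receptor that draws them to lymph nodes, had 5 UMIs, or 9.67 CPM, rank 2 of 21, and Il4i1, an amino acid oxidase, had 12, or 23.2 CPM, the highest of the 21 clusters before 17.9 CPM in cluster 6, a level within the counting interval of cluster 14. The chemokines Ccl17 and Ccl22 were at 0, and so were Siglech, Ly6d, Klk1, Cox6a2 and Spib of plasmacytoid dendritic cells, the main source of type I interferon, but each of these 7 genes had 193 UMIs or fewer in all of Ob and under 1 expected in cluster 14, so no absence can be read from them. No dendritic cell name is given to cluster 14, since its sum of the shared genes lay under that of cluster 6 and the subset lists gave no single picture.

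The 20 genes with the largest ratio over the other clusters, among those with at least 50 UMIs in cluster 14, had ratios from 3.64 to 8.13. First came Gpr141, an orphan G protein-coupled receptor, with 59 UMIs, 114 CPM and a ratio of 8.13 (6.16 to 10.5). Klra2, of the Ly49 receptor family, followed at 7.33 (5.62 to 9.40), Fgr, a Src family kinase, at 5.49 (4.46 to 6.68), and Adgre4 at 5.23 (4.19 to 6.45). The adaptor Samsn1 stood at 4.78 (3.65 to 6.16) and Rasgrp4, an exchange factor that activates Ras, at 4.48 (3.32 to 5.90). These lay in the same range as Ccr2, which came seventh. The further leading genes ran from Ndnf, a secreted protein, at 4.39 and Pou2f2 at 4.33 to Ly86, the partner of the receptor RP105, at 3.65 and the costimulatory ligand Cd86 at 3.64. Between them lay Tmem51, Sirpb1b, Pld4, an exonuclease of the endolysosome, Pstpip2, Clec4a1, Batf3, the inhibitory Fc receptor Fcgr2b, Ciita and H2-DMb1, all from 3.67 to 4.12. Klra2, Sirpb1b and Clec4a1 belong to families of closely related genes, so how reads were split among relatives is uncertain. Across all genes 453 of 5907 (7.67%) were above 2-fold over the other clusters and 760 (12.9%) below, with a median log2 ratio of 0.13. That split was 215 higher and 660 lower when the other clusters were averaged with equal weight, and 582 and 138 against their median.

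**Figure D2:**
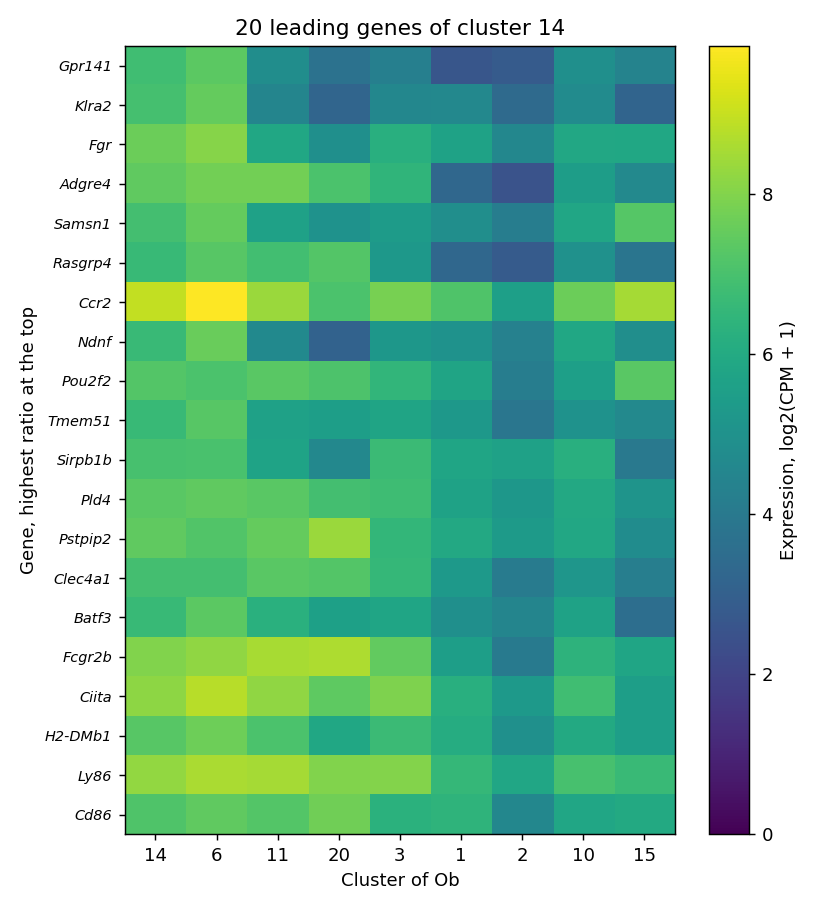
Heat map of log2(CPM + 1) for the 20 leading genes of cluster 14 (top, highest ratio) in cluster 14, cluster 6, the macrophage-like clusters 11, 20, 3, 1 and 2, and clusters 10 and 15. Cluster 6 is brighter than cluster 14 for most genes, for example Gpr141 at 165 against 114 CPM, while Fcgr2b and Pstpip2 are brightest in cluster 20.

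Most of these leading genes were higher still in cluster 6. Gpr141 had 165 CPM in cluster 6 and 27.4 CPM in cluster 11, Klra2 had 185 and 21.5, and Fgr had 269 and 56.8. Apart from cluster 14, the highest level of the 20 genes lay in cluster 6 for 14 of them, while cluster 20 held 3, cluster 11 held 2 and cluster 15 held 1. Cluster 14 lay above the summed macrophage-like clusters for 20 of 20, and among the 4 highest clusters for all of them. The 20 genes were chosen by their ratio over all other clusters, the macrophage-like ones among them. Both counts therefore largely follow from that choice. Few genes were highest in cluster 14 itself: 164 of the 5164 genes with at least 20 UMIs there (3.18%). Among the 193 genes of the named lists with that many UMIs, 5 were: Fcgr1, the high-affinity Fc receptor (52.2 CPM, then 34.0 in cluster 11), Csf3r, the receptor of granulocyte colony-stimulating factor (79.3, then 69.0 in cluster 20), Cx3cr1, the dendritic cell activation gene Cd83 (155, then 150.2 in cluster 1) and the kinase Btk (182, then 171 in cluster 3). Only for Fcgr1 did the counting interval of cluster 14 (34.4 to 75.9) leave out the level of the next cluster. That level was taken without its own counting error, and Fcgr1 did not pass 2-fold over cluster 11. A maximum beyond counting error is therefore not shown for Fcgr1.

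Over the genes with at least 2000 UMIs in all of Ob, cluster 14 was most like clusters 11, 6 and 3, at close values. Pearson's r of log2(CPM + 1) over 8080 genes, which share 1 library and its depth, was 0.943 with cluster 11, 0.941 with cluster 6, 0.936 with cluster 3 and 0.919 with cluster 1, and 0.781 with cluster 15. Where clusters 6 and 11 differed, cluster 14 lay between them. Of 317 genes more than 2-fold higher in cluster 6 than in cluster 11, cluster 14 was between the levels for 289 (91.2%), at a median of 0.51 of the log2 distance from the lower to the higher (quartiles 0.31 and 0.68). Of 275 genes higher in cluster 11, it was between for 255 (92.7%), at a median of 0.56 (0.40 and 0.73). Cluster 3, the next in this respect, was between for 80.2% and 78.5% of the genes, and cluster 15 for 33.4% and 17.8%. This comparison was chosen after the levels had been seen. It is a description of the 3 profiles, and whether nuclei of several kinds or joined nuclei lie in cluster 14 was not tested.

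Macrophage genes were high in cluster 14. Mrc1, the mannose receptor, had 806 UMIs, or 1558 CPM (1452 to 1669.6), between the 1258 CPM of cluster 6 and the 2377 of cluster 11, with 3142 in cluster 20. Adgre1, which encodes the macrophage marker F4/80, had 657 CPM, against 1055 for cluster 11 and 500.1 for cluster 6, and Mertk, a receptor for dying cells, had 599, 1166 and 277 in the same order. For these genes too cluster 14 lay above cluster 6 and below cluster 11. Of the 13 general macrophage genes past the minimum, 12 were higher than in the other clusters, 1 (Fcgr1) was higher than in the macrophage-like clusters, and 7 were higher than in cluster 6, with none lower in any of these. The shares of all genes that were higher were 7.67%, 5.10% and 4.11% in the same order. Against cluster 11 alone none of the 13 passed 2-fold either way, with a median log2 ratio of -0.68. Over all genes 182 of 5502 (3.31%) were higher than in cluster 11 and 101 (1.84%) lower. Genes of resident macrophages followed: F13a1, a subunit of coagulation factor XIII, had 1527 CPM, and clusters 20, 11 and 6 had 7584, 3246 and 1074. Timd4, a receptor for phosphatidylserine, had 27 UMIs, or 52.2 CPM (34.4 to 75.9), and was 4.74 (3.06 to 7.07) times the macrophage-like level, and the Fc receptor-like gene Fcrls was 4.10 (2.98 to 5.52) times it. Against cluster 11, 5 of 10 resident genes were lower (Cbr2, F13a1, Lyve1, Pf4 and Vsig4).

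Genes of lipid-associated macrophages were lower in cluster 14 than in the macrophage-like clusters summed (cluster 2 among them). The list summed to 1763 CPM, rank 10 of 21, against a median of 1301 in the other clusters, 978 for cluster 6 and 1352 for cluster 11. Gpnmb, a glycoprotein of the lysosome, had 246 CPM against 3190.1 in cluster 2 and was 0.159 (0.132 to 0.189) times the macrophage-like level. Mmp12, macrophage elastase, was 0.130 (0.103 to 0.162) times that level, Atp6v0d2, a subunit of the proton pump, 0.226 (0.190 to 0.268) times and the lectin Lgals3 0.387 (0.341 to 0.438) times. In all, 8 of 11 members past the minimum were lower and none higher, where 4.0% of all genes were lower. The highest sum was 11066 CPM in cluster 2, the largest of the 5 macrophage-like clusters. Against cluster 11 alone 0 of 9 members passed 2-fold in either direction (3.31% of all genes higher, 1.84% lower). Against cluster 6, 5 of 11 were higher (Atp6v0d2, Ctsk, Fabp5, Gpnmb and Trem2), where 4.11% of all genes were. Trem2 itself, the lipid receptor that marks these cells, had 30 UMIs and was 0.507 (0.341 to 0.726) times the macrophage-like level. The genes lowest against the macrophage-like clusters, among those with at least 50 UMIs expected, also included the olfactory receptor gene Olfr111 at 0.0791 (0.0215 to 0.203), Efr3b at 0.119, the helicase Zranb3 at 0.154, Wfs1, a protein of the endoplasmic reticulum, at 0.168, Apbb2 at 0.177 and the retinol dehydrogenase Dhrs9 at 0.184. They went on to Rgs1, Igf2bp2, Myo1e, Fat3, Il7r, the interleukin-7 receptor, and Mical2, up to 0.225. With cluster 2 left out of the sum, 183 genes were higher and 114 lower in place of 283 and 222, and against cluster 11 alone 12 of the 14 genes reported from this end lay above its level.

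At the other end, the genes most above the macrophage-like clusters were Gpr141 at 9.66 (7.15 to 12.9), Klra2 at 7.19 (5.43 to 9.40), Fgr at 4.19 (3.38 to 5.14), Samsn1 at 3.86 and Ndnf at 3.78. The same 5 genes were among the leading 20 against all other clusters. Cd226, an adhesion receptor of lymphocytes and some myeloid cells, followed at 3.54 (2.77 to 4.47), ahead of Ccr2 at 3.34 (2.93 to 3.79), where the macrophage-like level was 149 CPM. Retn, which encodes the adipokine resistin, stood at 2.98 (2.34 to 3.75). Rap1gap2, Ccdc88c, the calcium channel Itpr1, Pnpla3 and Arhgap26 had ratios from 2.65 to 2.97. The set also held transcripts of other cells, namely Serpinh1, a collagen chaperone, at 3.04, Col1a1 at 2.97, Dcn at 2.86 and the globin Hbb-bs at 2.60. Against cluster 11 alone Adgre4 and Rasgrp4 turned the other way, at 0.789 (0.617 to 1.0) and 0.848 (0.609 to 1.16).

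**Figure D3:**
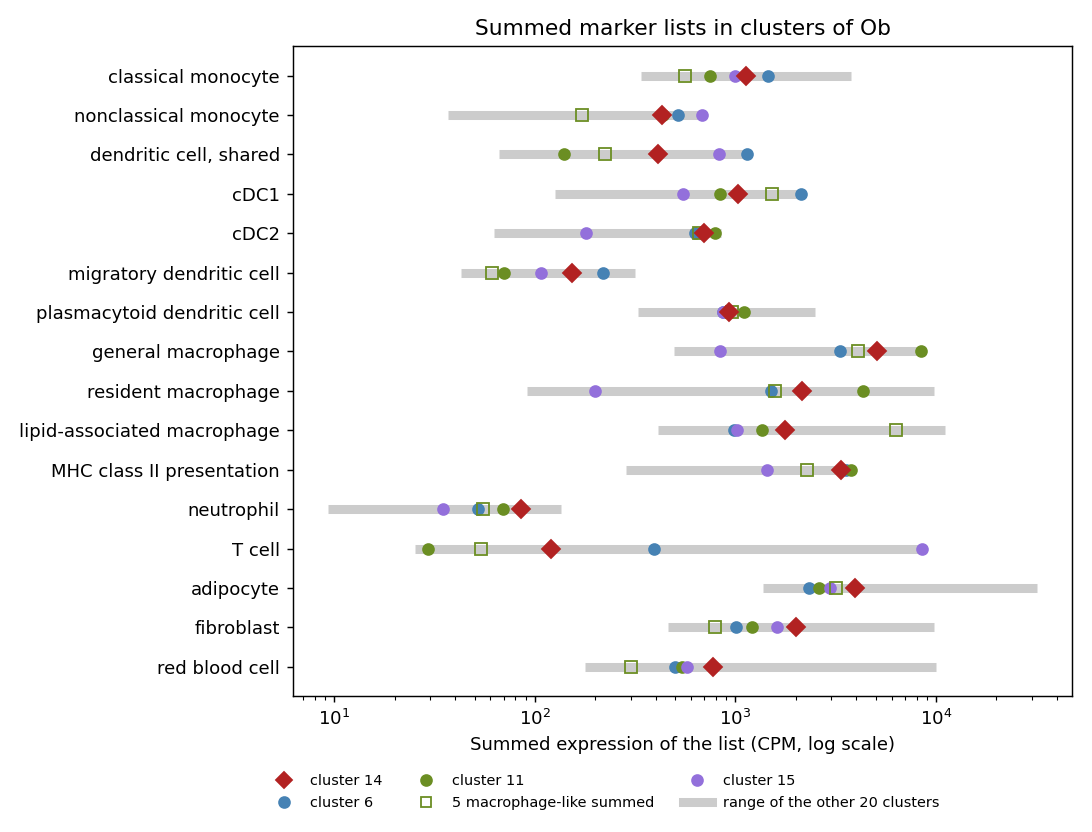
Summed expression in CPM (log scale) of 16 lists in cluster 14 (red diamond), clusters 6, 11 and 15 (circles) and the macrophage-like clusters summed (open square), with a grey bar for the range of the other 20 clusters. The general macrophage sum of cluster 14 (5061 CPM) lies between those of cluster 6 (3312) and cluster 11 (8397), and so does its shared dendritic cell sum (409.9 CPM).

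Transcripts for MHC class II presentation, by which dendritic cells, macrophages and B cells show peptides to CD4 T cells, were higher in cluster 14 than in the rest of the library. The promoters of 3 of its genes are shown because these genes were higher over the other clusters together with Ciita, the transactivator that acts through a shared set of promoter boxes. Each run gives the 120 bases before the start site, from the RefSeq promoter table on GRCm38.p6, in the direction of the gene, and capitals mark CTGATTGG, the Y box.
H2-Aa, minus strand, chr17:34287824-34287943: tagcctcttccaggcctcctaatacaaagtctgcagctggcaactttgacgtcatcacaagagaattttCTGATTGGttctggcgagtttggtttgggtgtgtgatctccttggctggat
H2-Eb1, plus strand, chr17:34305747-34305866: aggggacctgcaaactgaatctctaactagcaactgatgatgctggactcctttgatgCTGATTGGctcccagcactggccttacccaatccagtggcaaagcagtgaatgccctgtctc
H2-DMb1, plus strand, chr17:34153071-34153190: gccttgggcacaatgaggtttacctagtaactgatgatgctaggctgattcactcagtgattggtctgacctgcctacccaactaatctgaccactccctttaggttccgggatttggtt
H2-Aa and H2-Eb1 hold the box and H2-DMb1 does not hold these letters in this window. On both strands (CCAATCAG on the other), CTGATTGG was in 1346 of all 32851 promoters of 300 bases in the table (4.10%) and in 4 of the 13 promoters examined for 11 of the 14 genes of the list, those of H2-Aa, H2-Eb1, H2-Eb2 and H2-Oa. Cd74, H2-Ab1 and Ciita were not among the genes examined. GAGGAAGT, a PU.1 motif, was in 1052 promoters (3.20%) and in 1 of the 13, that of Ctss. The motifs do not overlap in letters, and a match is a description of the sequence.

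H2-Aa, the alpha chain of I-A, had 278 UMIs, or 537 CPM (476 to 604), with the other clusters between 54.2 and 767 CPM and 168 as their median. H2-Ab1, its beta chain, had 319 CPM and H2-Eb1, the beta chain of I-E, 423 CPM. The ratios over the other clusters were 3.45 (3.06 to 3.89) for H2-Aa, 3.50 (2.98 to 4.08) for H2-Ab1, 3.34 (2.91 to 3.81) for H2-Eb1, 3.77 (3.19 to 4.44) for Ciita and 3.67 (2.91 to 4.58) for H2-DMb1, a chain of the peptide exchange factor. H2-DMa, the partner chain of H2-DMb1, was 1.77 (1.12 to 2.67) times the level of the others and did not pass 2-fold. Of the 10 members past the minimum, 8 were higher and none lower, where 7.67% of all genes were higher. Against the macrophage-like clusters (5.10% of all genes higher) 4 were higher, namely H2-Aa at 2.24 (1.98 to 2.53), H2-Ab1 at 2.29 (1.95 to 2.68), Ciita at 2.04 (1.72 to 2.40) and H2-DMb1 at 2.18 (1.72 to 2.73). Against cluster 6 only Lgmn, an endosomal protease, was higher, at 2.10 (1.80 to 2.43), and against cluster 11 none of 10 passed 2-fold. Of all genes, 4.11% were higher than in cluster 6, and 3.31% were higher and 1.84% lower than in cluster 11. The sum of the list was 3374 CPM, rank 4 of 21, beside 3542 in cluster 6 and 3780.3 in cluster 11. H2-Eb2 and H2-Oa had 0 UMIs, of 28 and 18 in all of Ob. H2 genes are close relatives, so the division of reads among them is uncertain. Costimulatory ligands went with them. Cd83 had 155 CPM (123 to 192), Cd86 139 CPM (109 to 175) and Cd80 69.6 CPM (48.7 to 96.4), all above 2-fold over the other clusters, and Cd80 was also higher than in the macrophage-like clusters at 2.10 (1.46 to 2.94). The sum of the 10 costimulation and checkpoint genes was second of 21, at 443 CPM after 515 in cluster 6.

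**Figure D4:**
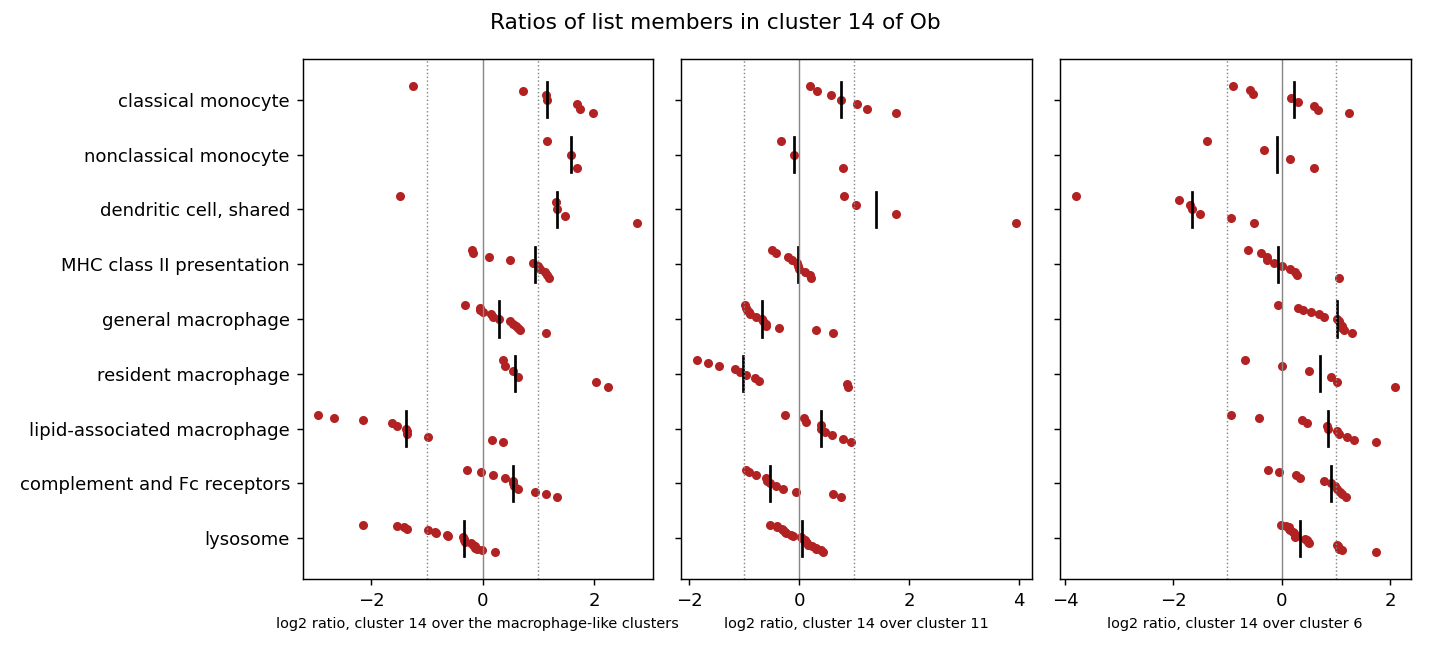
Log2 ratio of each list member past the minimum of 20 UMIs seen or expected in cluster 14 over the macrophage-like clusters (left), over cluster 11 (middle) and over cluster 6 (right). Points are genes, black lines are list medians and dotted lines mark 2-fold. Shared dendritic cell genes lie mostly right of 0 in the left and middle panels and left of 0 in the right panel (5 of 7 past 2-fold), and lipid-associated genes lie past 2-fold lower in the left panel for 8 of 11.

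Receptors for growth factors and cytokines had their highest sum of the 21 clusters in cluster 14, 2405 CPM (2273 to 2542), an interval that took in cluster 11 with 2384 and cluster 6 with 2348 CPM. Of 14 past the minimum, 8 were higher than in the other clusters and 3 higher than in the macrophage-like ones (7.67% and 5.10% of all genes): Il13ra1, a chain of the interleukin-13 receptor, at 3.84 (2.62 to 5.47), Il17ra, of the interleukin-17 receptor, at 2.15 (1.38 to 3.21), and Ifngr1, of the interferon-gamma receptor, at 2.09 (1.68 to 2.58). Csf3r was 4.35 (3.11 to 5.92) times the level of the other clusters. Of the chemoattractant receptors past the minimum, Ccr2 and Cx3cr1 were among those higher over the other clusters, while Ccr3, Ccr6 and Xcr1, each rare in Ob, had 0 UMIs. Of 6 adhesion genes past the minimum, the integrin chains Itga4 and Itgam and the selectin ligand Selplg were higher than in the other clusters. Complement and Fc receptor genes, which serve the uptake of opsonised particles, were higher for 11 of 11 where 7.67% of all genes were, and 2 of them (C3 and Fcgr1) also over the macrophage-like clusters, where 5.10% were. C3 stood at 2.53 (1.97 to 3.21) and Fcgr1 at 2.19 (1.43 to 3.22) there. Of 19 signalling genes of blood cells 13 were higher over the other clusters and none over the macrophage-like clusters. Of 16 myeloid transcription factors 8 were higher over the other clusters, and Batf3 and Cebpa, a factor of granulocyte and monocyte development, were higher over the macrophage-like clusters, at 2.49 (1.84 to 3.30) and 2.11 (1.42 to 3.03). Of 6 pattern recognition genes the Toll-like receptors Tlr1, Tlr7 and Tlr13 were higher over the other clusters and none over the macrophage-like ones.

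The list of inflammatory cytokines summed to 663 CPM, rank 2 of 21, and that of chemokines to 947 CPM, rank 5 of 21, with medians of 402 and 559 CPM in the other clusters. Il12b, which encodes the shared chain of interleukins 12 and 23, had 12 UMIs in cluster 14, or 23.2 CPM (12 to 40.5), of 85 in Ob (14.1%). The next cluster was 6 with 6.68 CPM, below the interval of cluster 14. Il6 had 6 UMIs, or 11.6 CPM (4.26 to 25.2), of 83 in Ob, and the level of the next cluster, 9, lay within that interval. They were chosen once their values were known and lay under the minimum of 20 UMIs. Of 5 inflammatory genes past the minimum, Il15, which sustains natural killer and memory T cells, and Tgfb1 were higher over the other clusters, and against the macrophage-like clusters Nfkbiz was higher at 2.15 (1.60 to 2.84) and Il1rn, the natural blocker of interleukin-1, lower at 0.0933 (0.0113 to 0.338). Of the chemokines, Ccl6 and Ccl9 were higher over the other clusters, and Ccl7, a ligand of Ccr2, was higher over the macrophage-like clusters at 2.78 (1.72 to 4.27). By the same rules 7.67% of all genes were higher over the other clusters and 5.10% over the macrophage-like clusters. Ccl3, Ccl4, Ccl17, Ccl22 and Cxcl1 had 0 UMIs. At the level of the other clusters each would fall under the set minimum of 20 UMIs. By that rule no call was made for these zeros, and no absence is read from them.

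Set against cluster 15, which carried T cell genes, cluster 14 was poor in lymphocyte transcripts. Of 12 T cell genes past the minimum 12 were lower, as were 7 of 7 natural killer cell genes and 7 of 8 B cell genes, where 977 of 6201 genes (15.8%) were lower and 970 (15.6%) higher. Themis, a regulator of T cell selection, had 30.9 CPM in cluster 14 and 2022 in cluster 15, and Cd3d, Cd3g and Cd8a had 0 UMIs. Klrk1, which encodes the receptor NKG2D, had 21 UMIs, or 40.6 CPM, which was 6.61 (3.96 to 10.5) times the macrophage-like level and 0.0996 (0.0608 to 0.155) times that of cluster 15. The 10 genes most above cluster 15 were led by Stard8 at 23.3 (11.5 to 55.0), F13a1 at 21.9 (16.5 to 29.6) and the scavenger receptor Cd163 at 21.8 (10.7 to 51.7), followed by Ms4a4a, Pik3r6, Mertk, Alpk1, Mrc1, the transporter Slco2b1 and the sterol hydroxylase Cyp27a1, down to 15.9. All 13 general macrophage genes were above cluster 15, and so were 10 of 11 complement and Fc receptor genes. Ccr2 was 1.37 (1.15 to 1.63) times its level and Ptprc 0.462 (0.425 to 0.502) times. Cluster 14 was thus nearer to cluster 15 in Ccr2 than in Ptprc, and far from it in both lymphocyte and macrophage genes.

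Transcripts of other cell types moved with the comparison against the macrophage-like clusters. By the same rule 5.10% of all genes were higher there. All 6 fibroblast genes past the minimum (Col1a1, Col1a2, Col3a1, Dcn, Fbn1 and Lum) were higher there. The 9 genes of that list summed to 2007 CPM in cluster 14, eighth of 21 clusters, with 462 to 9707 CPM in the others and 1010.0 and 1209.8 in clusters 6 and 11. The 4 globin genes, which mark red blood cells and share near-identical copies, were all higher as well, with a sum of 771 CPM (others 177 to 10015). Their ratio to the macrophage-like sum was 2.56 (2.31 to 2.83), beside 2.53 (2.37 to 2.69) for fibroblast genes. Of 12 adipocyte genes past the minimum Cidec, Lipe and Plin1 were higher, with a list sum of 3955 CPM (others 1369 to 31864). Their part in the results of cluster 14 was not tested. Of 11 neutrophil genes 7, among them S100a9, Cxcr2 and Retnlg, were at 0, and so were the B cell genes Cd79a, Cd79b and Pax5 and the mast cell genes Cpa3 and Tpsb2, although no more than 2.19 UMIs of each gene named would be seen in cluster 14 at the level of the other clusters. The sum of neutrophil genes, 85.1 CPM, was mostly Csf3r.

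Across the stages the genes of cluster 14 could be followed only in whole libraries, where more nuclei of a kind and more RNA per nucleus cannot be told apart, and stage and library are the same thing. Ccr2 stood at 21.4 CPM in Ctrl (20.2 to 22.7), 29.5 in Mid_Ob (28.1 to 31.0) and 114 in Ob (112 to 116), so Ob was 5.33-fold (5.02 to 5.67) above Ctrl and 3.86-fold (3.67 to 4.06) above Mid_Ob. Cd74 stood at 47.4, 69.6 and 196 CPM, Ptprc at 166, 188 and 563 CPM, and H2-Aa at 37.3, 54.6 and 157 CPM. Each of these 4 genes was highest in Ob and lowest in Ctrl. Of the 20 leading genes of cluster 14, 14 were more than 2-fold higher in Ob than in Ctrl and none lower, with a median log2 ratio of 1.21, where 2394 of 25145 genes (9.52%) were higher and the median of all genes was -0.51. Against Mid_Ob 10 were higher and 1, Tmem51, was lower, with a median of 0.94, where 2073 of 21665 genes (9.57%) were higher and the median of all genes was -0.13. The genes had been chosen by their level in Ob, so this direction is no independent sign of a rise. Clusters led by testis or epididymis genes were present in Ctrl and Mid_Ob. Without them 6 of the 20 were higher in Ob than in Ctrl and 6 than in Mid_Ob, and the Ccr2 ratios were 3.50 and 3.03. Without cluster 14 the Ccr2 ratios were 5.25 and 3.80, and 13 and 8 of the 20 genes were higher, so most of the Ccr2 of the Ob library lay in other clusters.

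In whole libraries, with the clusters led by testis or epididymis genes kept in, other genes of cluster 14 followed another order. Cx3cr1 stood at 23.9 CPM in Ctrl, 15.7 in Mid_Ob and 13 in Ob, Timd4 at 13.2, 8.83 and 7.44, and Flt3 stood at 7.65, 5.53 and 7.55. Of the 1291 Cx3cr1 UMIs of Ctrl, 268 and 353 lay in clusters 7 and 13, both led by testis or epididymis genes. Such clusters 6 and 13 held 122 and 88 of the 413 Flt3 UMIs of Ctrl. The order of these genes in fat alone is therefore not given by these values. The cluster with the highest Ccr2 was cluster 11 in Ctrl with 163 CPM and cluster 4 in Mid_Ob with 216 CPM, both below cluster 14 of Ob. Cluster 4 of Mid_Ob had 1602 CPM of Mrc1, 43.7 of Flt3 and 71.3 of Gpr141, and cluster 11 of Ctrl had 1555, 5.28 and 20.2. Cluster 14 had 1558, 32.9 and 114 CPM, near cluster 4 of Mid_Ob in Mrc1 and higher in Gpr141, although no cluster of another library can be named its partner.

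**Figure D5:**
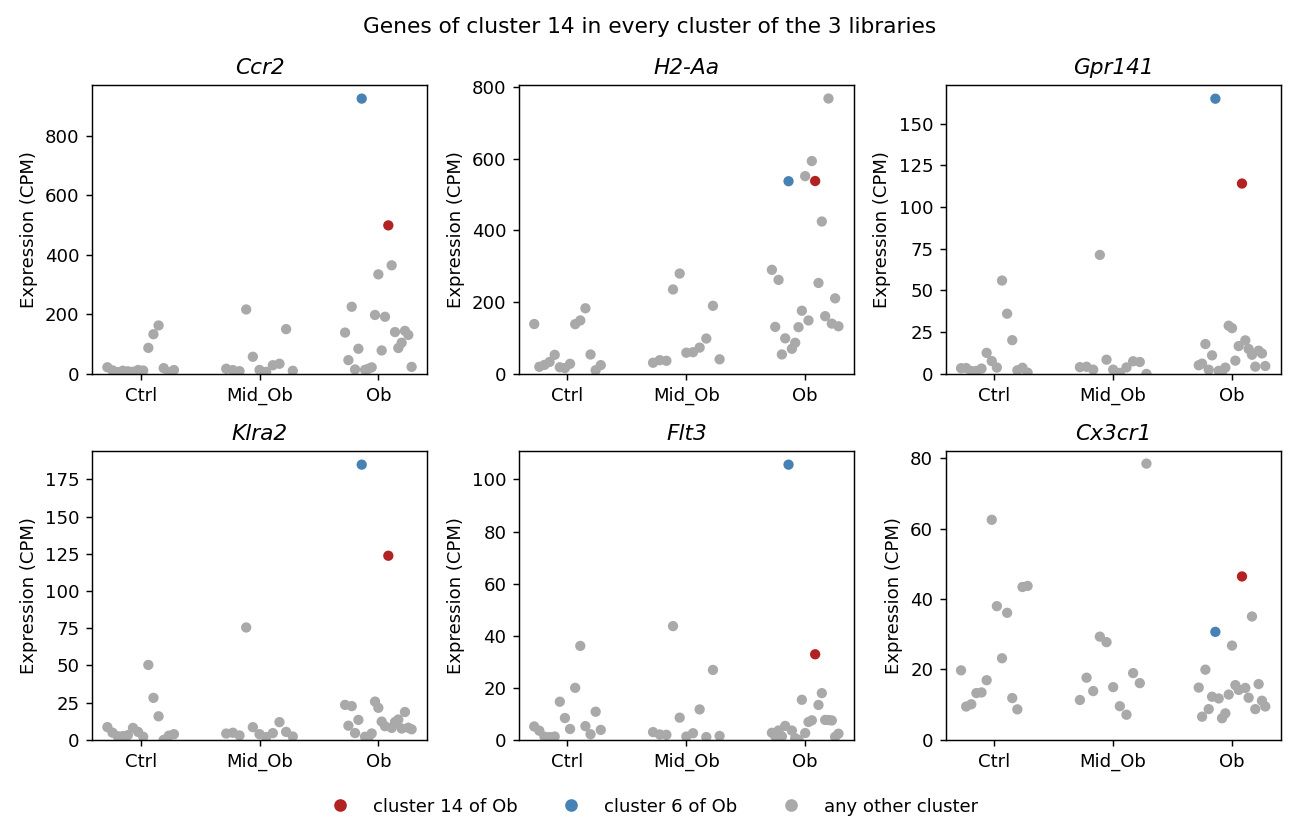
Expression in CPM of Ccr2, H2-Aa, Gpr141, Klra2, Flt3 and Cx3cr1 in every cluster of Ctrl, Mid_Ob and Ob, 1 library each, with 1 point per cluster, cluster 14 of Ob in red and cluster 6 of Ob in blue. For Ccr2 (499 CPM), Gpr141 (114) and Klra2 (124) cluster 14 stands above every cluster of Ctrl and Mid_Ob, whereas for Flt3 (32.9) and Cx3cr1 (46.4) some clusters of those libraries lie higher.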

How the data were processed

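Nuclear RNA of pooled epididymal fat was sequenced on the 10x Genomics platform, 1 library per group. The authors ran Cell Ranger, which includes the STAR aligner, and deposited for every cluster the mean counts per gene, a signal scaled to the median nucleus. The deposited log2 fold changes and adjusted p-values of each cluster against the rest are the authors' own comparisons and were not used. Which version of Cell Ranger, which build and which annotation were used is not given in the sources used here. The study removed doublets and nuclei rich in mitochondrial UMIs at a later step. Whether these tables precede it is not stated, and no doublet was removed here.

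Whole UMIs were recovered for 100% of the values (within 0.001 counts) and scaled to CPM. Of 29625 gene IDs, 29565 (99.8%) matched GENCODE M21. Levels have exact Poisson intervals, shares exact binomial and ratios conditional exact binomial intervals (95%). A gene counted as higher or lower past 2-fold with at least 20 UMIs seen in cluster 14 or expected there from the comparator, and the limit at 0 was 3 UMIs. Groups came from the sample titles. Clusters 6 and 11 were added as comparators after seeing the data. Alternatives were other comparators, folds and minimum counts. With 1 library per stage no test was run.

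Of 413 genes in 37 lists, 410 were in the Ob table. The genes named were all marker, monocyte, dendritic cell and MHC class II members, the 20 highest over the other clusters, the 20 highest and 15 lowest over the macrophage-like clusters, the 10 highest over cluster 15 (at least 50 UMIs, without unnamed gene models, mitochondrial and Y-linked genes) and the 4 members with most UMIs of other lists. A few genes of these sets are not reported here. Other list genes are named where they passed 2-fold or stood at 0. The members and lists, and the names macrophage-like and lymphocyte-like, were chosen with earlier results of these data known. Scripts ran in Python 3.11.15 with pandas 2.3.3, scipy 1.17.1 and numpy 2.4.6, and figures were drawn with matplotlib 3.10.9. The ratio and call steps were tested on simulated data.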

Additional observations from a re-analysis of the deposited data

How the results depend on the processing

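Counts of genes past a fold moved with the choice of comparator and threshold, and the cause was not tested. Against the 20 other clusters, 215 genes were higher when those clusters were averaged with equal weight, and 138 were lower against their median. Higher and lower genes numbered 698 and 1206 with at least 10 counts, 271 and 392 with at least 50, 1239 and 1146 at 1.5-fold, and 23 and 295 at 4-fold. Against the macrophage-like clusters they numbered 183 and 114 without cluster 2, 182 and 101 against cluster 11 alone, 546 and 345 with at least 10 counts, 105 and 127 with at least 50, 834 and 557 at 1.5-fold, and 17 and 40 at 4-fold, and 140 were lower with the 5 clusters averaged. Against cluster 15 they numbered 566 and 483 with at least 50 counts, 1518 and 1576 at 1.5-fold, and 395 and 437 at 4-fold. Of the 20 leading genes, 6 were higher in Ob than in Ctrl, and 6 than in Mid_Ob, without the clusters led by testis or epididymis genes. Of 717 single gene ratios recomputed, 604 moved by less than their interval, 99 moved further and 14 reversed, all 14 against cluster 11 alone, a comparator added after seeing the data: Adgre4 0.789, Rasgrp4 0.848, Efr3b 2.47, Mmp12 1.73, Zranb3 3.34, Gpnmb 1.93, Wfs1 1.30, Apbb2 1.12, Dhrs9 2.47, Fat3 1.18, Rgs1 2.01, Igf2bp2 3.83, Myo1e 1.43 and Il7r 1.94. F10 and Atf3, not among these 14, were also lower than in the macrophage-like clusters and past 2-fold higher than in cluster 11. Cluster 14 held 517257 UMIs, so the 3 UMIs set as the limit at 0 equal 5.80 CPM there. That limit is a setting and not a bound on the level of a gene at 0. No paired analysis was possible because each stage had 1 library.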

Other observations

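Genes of dividing cells lay near the middle of the clusters in cluster 14. The 12 genes of that list summed to 213 CPM, thirteenth of 21 clusters, with a median of 223 in the other clusters. The macrophage-like level was 192 CPM, with 3454 for cluster 10, 347 for cluster 6 and 87.5 for cluster 11. Top2a, the topoisomerase of dividing nuclei, had 10 UMIs and was 0.407 (0.195 to 0.749) times the level of the other clusters. Genes that type I interferon switches on summed to 499 CPM, seventh of 21, and 0 of 5 members past the minimum passed 2-fold over the other clusters or over the macrophage-like clusters. By the same rule 7.67% and 5.10% of all genes were higher, so 0 of 5 is near the share of all genes. Immediate early genes, which respond within minutes to stimulation and to tissue handling, summed to 529.7 CPM, ninth of 21. The phosphatase Dusp1 was higher over the other clusters at 2.05 (1.67 to 2.49), and Fos and Atf3 were lower than in the macrophage-like clusters at 0.486 (0.342 to 0.671) and 0.326 (0.218 to 0.469). Against cluster 11 alone Atf3 was instead past 2-fold higher. Lysosomal genes summed to 4901 CPM, eighth of 21 and below the 10116 CPM of cluster 2. Of 20 past the minimum, 4 were lower than in the macrophage-like clusters (Atp6v0d2, Atp6v1a, Ctsk and Lipa) and none higher, whereas 6 were higher than in cluster 6. By the same rule 4.0% of all genes were lower than in the macrophage-like clusters and 4.11% higher than in cluster 6.

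Lists of other tissue cells had sums in cluster 14 well below those of their highest clusters. Endothelial genes summed to 147 CPM against 3816 in cluster 21, mesothelial genes to 83.1 against 2967 in cluster 12, pericyte and smooth muscle genes to 36.7 against 467 in cluster 9, and mast cell genes to 15.5 against 104 in cluster 21. B cell genes summed to 290.0 CPM, with Cd79a, Cd79b and Pax5 at 0. Pecam1, which encodes the adhesion molecule CD31 of endothelium and some white blood cells, was 3.32 (2.36 to 4.57) times the macrophage-like level while Emcn, an endothelial gene, had 0 UMIs. At the level of the other clusters Emcn would fall under the set minimum of 20 UMIs. By that rule no call was made for it, and its absence is not read from this zero.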
